A study of Drosophila melanogaster with 6 samples.

Results

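The mitochondrial genome of *Drosophila melanogaster* carries a run of 5 tRNA genes, for alanine, arginine, asparagine, serine and glutamate, that lie side by side and are read from the same, majority, strand. These 5 tRNAs were taken by name from a table of 106 tRNAs, of which 22 are mitochondrial and 84 are nuclear isodecoders, each a distinct mature tRNA sequence, several of which can carry an identical anticodon. All 5 were present in the table. tRNA was quantified by hydro-tRNAseq, in which tRNAs are cut into short pieces by partial alkaline hydrolysis before adaptors are added, which lessens the blocks that base modifications and tight folding place on reverse transcription. The first group comprised 3 samples of ectopic neuroblast brains (genotype insc-Gal4>UAS-aPKC_caax, labelled neuroblast-biased), and the second comprised 3 samples of wildtype brains (Oregon R in the labels, Oregon-R-P2 in the methods of the study, labelled neuron-biased). In the ectopic neuroblast brains, the *insc-Gal4* driver expresses a membrane-targeted form of the polarity kinase aPKC in neuroblasts, the neural stem cells of the fly brain, which then divide symmetrically and accumulate. Larvae of both groups were in the third larval stage and were kept at 25 °C per the labels. The methods of the study give a temperature range that ends there, and its methods and results give different ages. Whole brains were dissected, so each sample held other cell types as well, and a change in the number of cells of a type cannot be told apart from a change in the tRNA content per cell. The proportion of neuroblasts and neurons was not measured here.

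Animal mitochondrial DNA is transcribed into long precursor RNAs in which tRNAs stand between, and next to, the coding regions. The tRNAs are released when RNase P cuts at their 5′ ends and RNase Z at their 3′ ends, after which the CCA tail is added and the tRNA is modified and charged. Neighbouring tRNAs of the same strand can therefore start out as pieces of the same precursor, and release, modification and turnover are among the steps that affect their levels. They serve only the mitochondrial ribosome, which makes the few respiratory chain proteins encoded in the organelle.

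In the RefSeq annotation of Release 6, the cluster spans positions 5983 to 6325 of the mitochondrial genome, or 343 nucleotides. It begins 21 nucleotides after the end of *ND3*, which encodes a subunit of respiratory complex I, and ends 18 nucleotides before *trnF*, the tRNA gene for phenylalanine on the minority strand. The gene of mito:Ala-TGC (*trnA*, 5983 to 6047) is separated from the next by 14 nucleotides. The genes of mito:Arg-TCG (*trnR*, 6062 to 6125), mito:Asn-GTT (*trnN*, 6126 to 6190), mito:Ser-GCT (*trnS2*, 6191 to 6258) and mito:Glu-TTC (*trnE*, 6259 to 6325) follow with no nucleotide between them. The 5 genes are 64 to 68 nucleotides long, and none overlaps another annotated gene. The annotation used gives gene spans without strand, and strands were taken from the known map of the fly mitochondrial genome.

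The authors' table gives 1 mean per group for each tRNA, in read counts normalised by the trimmed mean of M values (TMM). Every level below is that mean. The methods of the study also name a batch correction, and it is not stated whether these means include it. From 1 mean per group no replicate spread or test could be calculated, and the statistics of the authors' own comparison, which stand in the same table, were not used. All 5 tRNAs of the cluster had a higher mean in neuroblasts, with log2 ratios of neuroblast over neuron between 0.31 and 1.12. Across the whole table, 43.4% of tRNAs were higher in neuroblasts. A log2 ratio of at least 0.5 was reached by 4 of the 5, against 18.9% of all tRNAs in that direction. The volcano plot of the study marks this size only together with a q-value limit, which was not applied here. Among all 22 mitochondrial tRNAs, 86.4% were higher in neuroblasts and 59.1% reached 0.5. A log2 ratio of at least 1 was reached by 2 of the 5, against 10.4% of all tRNAs and 40.9% of the mitochondrial ones. The counts in the cluster thus lay near those of mitochondrial tRNAs in general.

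mito:Ala-TGC, which reads the alanine codons, had a mean TMM of 54073 in neuroblasts and 43625 in neurons, a log2 ratio of 0.31. This was the smallest difference in the cluster and the only member below 0.5. mito:Arg-TCG, which reads the arginine codons that begin with CG, had a mean of 52598 in neuroblasts and 24186 in neurons, a log2 ratio of 1.12. Its mean in neuroblasts was 2.17 times that in neurons, the largest ratio of the 5. mito:Asn-GTT, the asparagine tRNA, had a mean of 52343 in neuroblasts and 32638 in neurons, a log2 ratio of 0.68. The mean was thus 1.60 times as high in neuroblasts.

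mito:Ser-GCT reads the serine codons that begin with AG and, as in nearly all animals, belongs to the mitochondrial serine tRNAs that lack the D arm of the usual cloverleaf. It had a mean of 77164 in neuroblasts and 49712 in neurons, a log2 ratio of 0.63. mito:Glu-TTC, the glutamate tRNA at the end of the cluster, had a mean of 6115 in neuroblasts and 2879 in neurons, a log2 ratio of 1.09. The member with the lowest level in both groups therefore had a ratio close to that of mito:Arg-TCG. In neuroblasts the means of the alanine, arginine and asparagine tRNAs lay close together, whereas in neurons they were spread out.

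**Figure D1:**
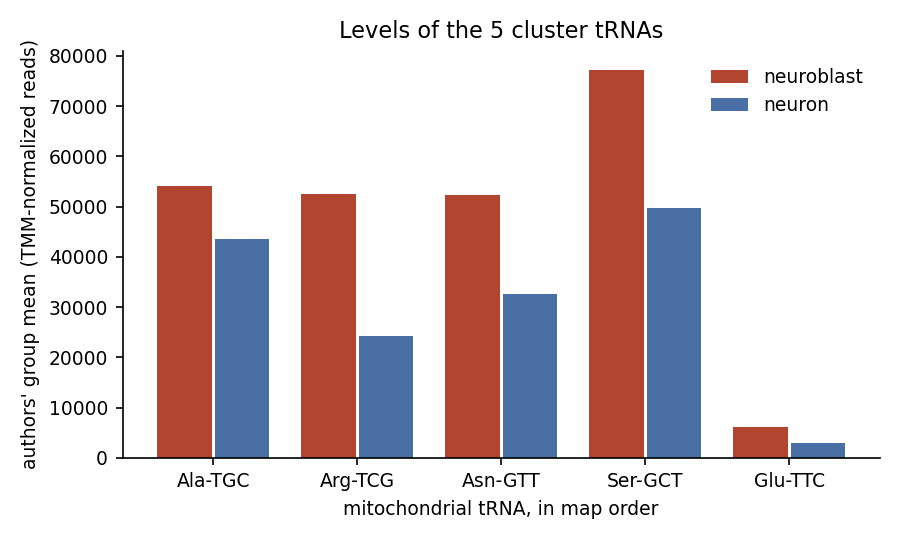
Authors' group mean (TMM-normalised reads, vertical axis) of the 5 cluster tRNAs in map order, neuroblast bars left of neuron bars, 1 mean of 3 samples per bar and no error bars because the table gives means only. All 5 neuroblast bars are higher, and mito:Glu-TTC, at 6115 in neuroblasts and 2879 in neurons, stands far below the others.

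Levels of different tRNAs were compared per nucleotide of gene length. Recovery as reads may differ from tRNA to tRNA and was not measured here. Comparisons between tRNAs, here and below, therefore describe read levels and not numbers of molecules. The order in neuroblasts was mito:Ser-GCT at 1135 TMM per nucleotide, mito:Ala-TGC at 831.9, mito:Arg-TCG at 821.9, mito:Asn-GTT at 805.3 and mito:Glu-TTC at 91.3. In neurons the order was mito:Ser-GCT at 731.1, mito:Ala-TGC at 671.2, mito:Asn-GTT at 502.1, mito:Arg-TCG at 377.9 and mito:Glu-TTC at 43.0. The arginine and asparagine tRNAs thus exchanged places between the groups, although in neuroblasts they differed by only 1.02 times. With no spread between samples in the table, it could not be said which neighbours in either order differ beyond error.

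The cluster was not evenly represented in the reads. The highest member exceeded the lowest by 12.4 times in neuroblasts and 17.01 times in neurons. Nearly all of this came from mito:Glu-TTC, and among the other 4 the highest exceeded the lowest by 1.41 times in neuroblasts and 1.93 times in neurons. The coefficient of variation over the 5 levels was 52.4% in neuroblasts and 58.9% in neurons. Over the 4 without the glutamate tRNA it was 17.6% in neuroblasts and 28.2% in neurons. Over the 9 other majority-strand mitochondrial tRNAs it was 95.1% in neuroblasts and 117.6% in neurons. Over the 8 minority-strand ones it was 62.2% in neuroblasts and 106.8% in neurons. By this measure the cluster was less uneven than either set. The highest exceeded the lowest by 22.2 times in neuroblasts and 52.1 times in neurons in the majority-strand set. In the minority-strand set it did so by 8.60 and 13.1 times, less than in the cluster. If all 5 members were equal, each would hold 20% of the summed level per nucleotide. mito:Ser-GCT held 30.8% in neuroblasts and 31.4% in neurons, and mito:Glu-TTC held 2.48% in neuroblasts and 1.85% in neurons. The share of mito:Asn-GTT was 21.9% in neuroblasts and 21.6% in neurons. The shares of the remaining members differed in opposite directions. mito:Ala-TGC held 22.6% in neuroblasts and 28.9% in neurons, and mito:Arg-TCG held 22.3% in neuroblasts and 16.3% in neurons. These shares do not depend on how the groups were scaled.

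Among the 22 mitochondrial tRNAs ranked by level per nucleotide, the 4 members other than mito:Glu-TTC ranked 2 to 7 in neuroblasts and 3 to 8 in neurons. mito:Ser-GCT ranked 2 in neuroblasts and 3 in neurons, and mito:Ala-TGC ranked 4 in both. mito:Glu-TTC ranked 21 in both groups, above only mito:Thr-TGT, another majority-strand tRNA. The other mitochondrial serine tRNA, mito:Ser-TGA, which reads the serine codons that begin with TC, had a mean of 9055 in neuroblasts and 6581 in neurons. Per nucleotide, mito:Ser-GCT was 8.27 times as high as mito:Ser-TGA in neuroblasts and 7.33 times as high in neurons.

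The step at the end of the cluster was set beside the other same-strand neighbours of the mitochondrial map. Between mito:Ser-GCT and mito:Glu-TTC, whose genes abut, the level per nucleotide differed by 12.4 times in neuroblasts and 17.01 times in neurons. mito:Lys-CTT and mito:Asp-GTC, whose genes are 1 nucleotide apart, differed by 5.50 times in neuroblasts and 9.09 times in neurons. The minority-strand pair mito:Cys-GCA and mito:Tyr-GTA differed by 2.04 times in neuroblasts and 3.07 times in neurons. For mito:Ile-GAT and mito:Met-CAT, which have a tRNA gene of the other strand between them, the level differed by 2.17 times in neuroblasts and 4.05 times in neurons. Uneven levels of adjacent tRNAs were therefore also found elsewhere, and the step into mito:Glu-TTC was the largest of these 7 pairs in both groups.

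Inside the cluster, the remaining steps were smaller. mito:Ala-TGC and mito:Arg-TCG differed by 1.01 times in neuroblasts and 1.78 times in neurons. The arginine and asparagine tRNAs differed by 1.02 times in neuroblasts and 1.33 times in neurons. From mito:Asn-GTT to mito:Ser-GCT the level per nucleotide was 1.41 times as high in neuroblasts and 1.46 times as high in neurons. All 4 steps of the cluster, and all 7 pairs, were smaller in neuroblasts. It follows from this that in each pair the tRNA that was lower in neurons had the higher log2 ratio, which is not a second observation. Both quantities contain the neuron mean, so the pattern is a description without a test. Downstream of the cluster, mito:Phe-GAA on the other strand was 5.74 times as high as mito:Glu-TTC in neuroblasts and 6.50 times as high in neurons.

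**Figure D2:**
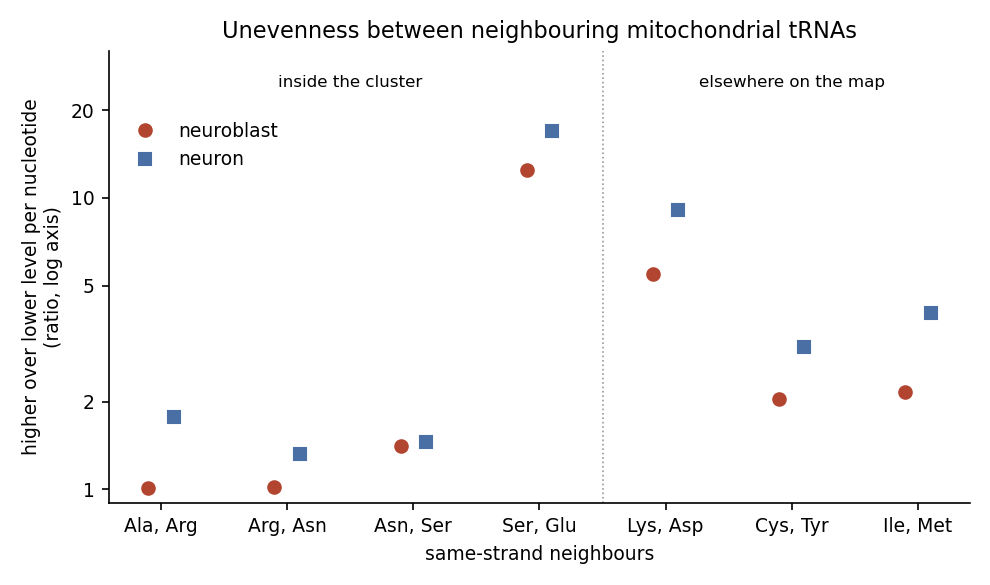
Higher over lower level per nucleotide (ratio, log axis) for 7 pairs of same-strand neighbours, circles for neuroblasts and squares for neurons, with the 4 pairs of the cluster left of the dotted line. The ratio of mito:Ser-GCT to mito:Glu-TTC is the largest, at 12.4 in neuroblasts and 17.01 in neurons, and every circle lies below its square. mito:Ile-GAT and mito:Met-CAT have a tRNA gene of the other strand between them.

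The log2 ratio between the groups also varied along the cluster. It was 0.31, 1.12, 0.68, 0.63 and 1.09 from mito:Ala-TGC to mito:Glu-TTC, with a median of 0.68. The widest gap within the cluster was 0.81, between the neighbours mito:Ala-TGC and mito:Arg-TCG. The gap between mito:Asn-GTT and mito:Ser-GCT was 0.05. Across all tRNAs of the table, the median log2 ratio was −0.12. It was 0.91 for the 9 other majority-strand mitochondrial tRNAs, which ranged from −0.0011 to 1.48, and 0.56 for the 8 minority-strand ones, which ranged from −0.39 to 1.70. The 5 members thus covered a range of 0.81, which lay inside that of both other sets. Of the other majority-strand tRNAs, 8 of 9 were higher in neuroblasts and 5 of 9 reached 0.5. Of the minority-strand tRNAs, 6 of 8 were higher and 4 of 8 reached 0.5. Upstream of the cluster, beyond *ND3*, mito:Gly-TCC had a log2 ratio of 1.11, and downstream mito:Phe-GAA had one of 0.91.

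**Figure D3:**
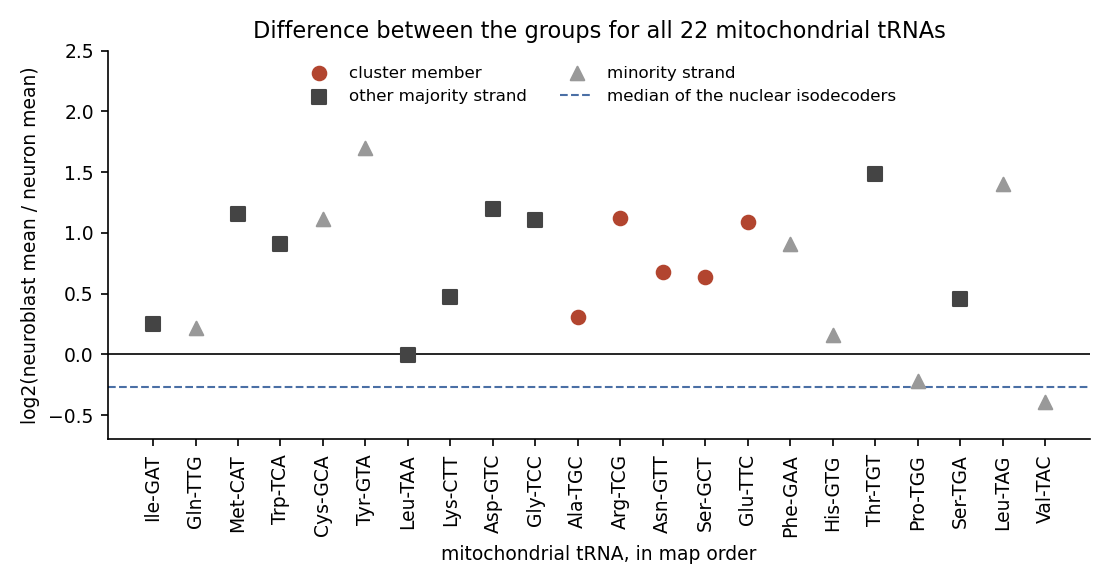
Log2 ratio of the neuroblast mean over the neuron mean (vertical axis) for the 22 mitochondrial tRNAs in map order, with circles for the cluster, squares for other majority-strand and triangles for minority-strand tRNAs. The 5 circles lie between 0.31 and 1.12, above the dashed line at −0.27 that marks the median of the nuclear isodecoders.

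Summed over its members, the cluster had a TMM of 242294 in neuroblasts and 153040 in neurons, a log2 ratio of 0.66. Of the difference, mito:Arg-TCG accounted for 31.8%, mito:Ser-GCT for 30.8%, mito:Asn-GTT for 22.1%, mito:Ala-TGC for 11.7% and mito:Glu-TTC for 3.63%. The glutamate tRNA thus contributed little to the sum in spite of its high ratio. This split is for the values as deposited and depends on how the groups were scaled. The cluster made up 31.6% of the summed mitochondrial TMM in neuroblasts and 28.3% in neurons, and 1.70% of the TMM of all tRNAs in neuroblasts and 0.90% in neurons. The log2 ratio of the sum was 0.56 for the other majority-strand tRNAs and 0.31 for the minority-strand tRNAs. With both groups scaled to the same mitochondrial sum, the log2 ratio of mito:Ala-TGC turned to −0.20, and the other 4 remained above 0, between 0.13 and 0.62. In that scaling, 59.1% of the mitochondrial tRNAs were higher in neuroblasts, and 2 of the 5 members reached 0.5, against 40.9% of the mitochondrial tRNAs.

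The nuclear isodecoders had a median log2 ratio of −0.27, and all 5 members lay above it by 0.58 to 1.39. With that median set to 0, all 5 reached 0.5, against 32.1% of all tRNAs and 77.3% of the mitochondrial ones. Each member was then set beside the nuclear tRNAs of the same amino acid, which serve cytosolic translation. For glutamate, the summed nuclear TMM had a log2 ratio of −0.60, with 0 of 4 isodecoders higher in neuroblasts, whereas mito:Glu-TTC had 1.09. For alanine, the nuclear sum had a log2 ratio of −0.47, with 0 of 5 isodecoders higher, and mito:Ala-TGC had 0.31. For arginine, the nuclear sum had −0.41, with 3 of 9 isodecoders higher, and mito:Arg-TCG had 1.12. Single nuclear arginine isodecoders reached a log2 ratio of 1.97, and 7 of the 9 lay below mito:Arg-TCG. On the values as deposited, the mitochondrial tRNA and the nuclear sum thus differed in sign for these 3 amino acids. The sums over all nuclear and all mitochondrial tRNAs also differed in sign, at −0.30 and 0.51. Of all 84 nuclear isodecoders, 27 were higher in neuroblasts. For alanine, the 2 did not differ in sign with both groups scaled to the same mitochondrial sum, where mito:Ala-TGC is at −0.20. The nuclear serine sum had a log2 ratio of 0.33, with 4 of 8 isodecoders higher, against 0.63 for mito:Ser-GCT. The nuclear asparagine tRNA, a single isodecoder, had 0.07, against 0.68 for mito:Asn-GTT. Scaling to the same mitochondrial sum shifts every log2 ratio by −0.51. The nuclear serine and asparagine values then fall below 0, whereas mito:Ser-GCT, at 0.13, and mito:Asn-GTT, at 0.18, stay above it. The differences in log2 ratio, mitochondrial minus nuclear, were 1.69 for glutamate, 1.53 for arginine, 0.78 for alanine, 0.61 for asparagine and 0.31 for serine. They do not depend on the scaling of the groups. The median over all mitochondrial tRNAs lay 1.06 above that of the nuclear isodecoders.

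The tRNAs most like each member were sought as the nearest points in the plane of the log2 means of both groups, which rests on 2 values per tRNA. mito:Lys-CTT was the nearest mitochondrial tRNA to mito:Ala-TGC (distance 0.12), to mito:Asn-GTT (0.39) and to mito:Ser-GCT (0.48). mito:Met-CAT was the nearest to mito:Arg-TCG, at 0.23, and mito:Asp-GTC the nearest to mito:Glu-TTC, at 0.92. In no case was another member of the cluster the nearest. The nearest nuclear isodecoders were Gln-CTG-4-1 for mito:Ala-TGC (0.24), SeC-TCA-1-1 for mito:Arg-TCG (0.74) and for mito:Asn-GTT (0.38), Gln-CTG-1-1 for mito:Ser-GCT (0.43) and Thr-TGT-1-1 for mito:Glu-TTC (0.47).

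**Figure D4:**
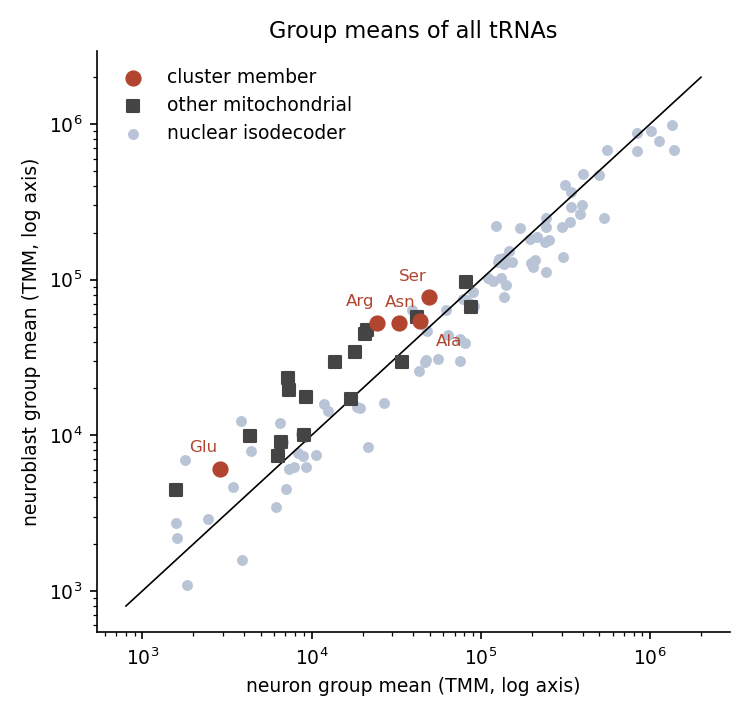
Group mean of each of the 106 tRNAs in neuroblasts (vertical, TMM, log axis) against neurons (horizontal, TMM, log axis), with cluster members named, other mitochondrial tRNAs as squares and nuclear isodecoders in pale blue. The diagonal marks equal means, and all 5 members lie above it.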

How the data were processed

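tRNA was sequenced in 3 neuroblast-biased and 3 neuron-biased samples, grouped by their titles. According to the methods, the authors trimmed reads with cutadapt, aligned them to a set of collapsed mature tRNAs with CCA ends (subread-align), counted them with featureCounts, which split multi-mapped reads, and normalised (TMM) and batch-corrected them for NOISeqBio. The batches are not given in the sources used here. The deposited values are a normalised signal, the authors' mean TMM per group. The deposited table also holds the authors' theta, probability, log2 fold change and q-value, which were not used. The depth of each library is unknown, so the precision of each mean is unknown.

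Log2 ratios (neuroblast over neuron, no pseudocount), sums, shares and levels per nucleotide were calculated with Python 3.11.15, numpy 2.4.6 and pandas 2.3.3, and plotted with matplotlib 3.10.9. The calculation of ratios and counts was tested on simulated data. All 22 mitochondrial tRNAs were found under their names in the RefSeq annotation of Release 6, which gave the lengths. No test was run, since only group means were at hand. The text names the 5 members, their map neighbours and the other adjacent same-strand pairs. It also names mito:Ile-GAT and mito:Met-CAT, which share a strand but have a tRNA gene of the other strand between them. The other mitochondrial serine tRNA, the nearest tRNAs in both means and the nuclear tRNAs of the same amino acids are named too. mito:Thr-TGT was added after its values were seen. Members and lists were chosen with earlier results of these data known. Alternatives were other scalings, a pseudocount of 1000, a minimum average of 5000 over both means, a log2 threshold of 1 and other length corrections. No tRNA sequence was read here, so the similarity of the members to other tRNAs, which bears on split reads, was not analysed here.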

Additional observations from a re-analysis of the deposited data

How the results depend on the processing

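No paired analysis was possible because the table gives 1 mean per group, and leaving out a replicate was not possible for the same reason. With the groups scaled to the same summed TMM of all tRNAs, the median log2 ratio of the members was 0.95 and that of the summed cluster 0.93, and with the nuclear median set to 0 they were 0.95 and 0.93. In both, all 5 members reached 0.5, against 32.1% of all tRNAs and 77.3% of the mitochondrial ones. With the same summed mitochondrial TMM, the median was 0.18, the summed cluster 0.16, and 2 members reached 0.5, against 40.9% of the mitochondrial tRNAs. A threshold of 1 on the log2 ratio also left 2, mito:Arg-TCG and mito:Glu-TTC, against 10.4% of all tRNAs and 40.9% of the mitochondrial ones. With a pseudocount of 1000, mito:Glu-TTC was at 0.88 and no longer reached 1, the median was 0.67, the summed cluster 0.65, and the highest member exceeded the lowest by 10.8 times in neuroblasts and 12.9 times in neurons. The minimum average TMM of 5000 removed mito:Glu-TTC, after which the median was 0.66, the summed cluster 0.65, and the highest exceeded the lowest by 1.41 times in neuroblasts and 1.93 times in neurons. Without division by length it was 12.6 times in neuroblasts and 17.3 times in neurons over all 5, and with the CCA end added to the length 12.4 times in neuroblasts and 17.02 times in neurons. Of these alternatives, only the scaling to the mitochondrial sum could turn the log2 ratio of a member from above to below 0. It did so for mito:Ala-TGC, at −0.20, and the other members stayed above 0. The other scalings raised every log2 ratio, and neither the pseudocount nor the minimum can change a sign.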
